A study of Mus musculus with 6 samples.

Results

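The 78 genes described here encode the protein parts of the mitochondrial ribosome and carry the symbols Mrpl or Mrps followed by a number. They were taken by symbol from the 25124 gene symbols of the deposited expression table. The 49 Mrpl genes encode proteins named for the large subunit, and the 29 Mrps genes encode proteins named for the small subunit. The rule reads symbols only, although the set was picked for description with earlier results of these data known.

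RNA was sequenced from RAW264.7, a mouse macrophage-like tumour cell line, in 3 libraries labelled E4BP4 knockout and 3 control libraries. E4BP4, encoded by Nfil3, is a basic leucine zipper protein, known mainly as a repressor of genes with D-box elements. Per the labels, all cells were untreated and were grown under 1 set of conditions in high-glucose medium with serum, and polyadenylated RNA was sequenced with a kit that does not mark strand. The labels do not say how the knockout was made, if the line is 1 clone or mixed cells, or if each replicate was its own culture. The p-values therefore reflect library-to-library spread alone, part of which may be technical.

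Mitochondrial ribosomes translate the few mRNAs encoded by mitochondrial DNA, which specify subunits of the oxidative phosphorylation complexes. Their rRNAs come from mitochondrial DNA, whereas their proteins are encoded in the nucleus, made in the cytosol and imported. Some of the proteins descend from bacterial ribosomal proteins and share their numbers, and the others are particular to mitochondria. In macrophages, respiration supported by this system is known to differ between states of activation.

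The libraries and labels were checked first. Sequencing depth per the file headers was 21.7 M to 23.3 M tags (M, mega) under the knockout label and 18.4 M to 21.7 M in the controls, and each gene of the set had between 81 and 3058 recovered reads in a library. Nfil3, the targeted gene, had 105, 104 and 99.8 TPM (a length-normalized transcript level scaled to the library) in the libraries labelled knockout, against 29.5, 29.9 and 31.0 TPM in the controls. This goes against a loss of its transcript, so the groups are named by their labels throughout. Whether the labels were exchanged was not tested, and an exchange would turn every rise below into a fall and every fall into a rise. Summed TPM over 8 macrophage markers was 4155 to 4295 under the knockout label and 2998 to 3265 in the controls, with 3 of the 8 higher and 5 lower. Lyz2 made up that gap, since the other 7 markers summed to 1988 to 2029.7 TPM under the knockout label and 1981 to 2106 TPM in the controls. Fibroblast, epithelial and endothelial marker lists each summed to at most 1.08 TPM in any library, with Krt8 at 0, and the T cell list summed to 4.10 to 4.22 TPM against 2.58 to 2.71 TPM, nearly all of it Lck. The part of these differences in the results below was not tested, and in bulk RNA a change in the share of cells cannot be told apart from a change in RNA per cell.

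All 78 mitochondrial ribosomal protein genes were expressed in every library, and the change in the libraries labelled knockout was small and ran in both directions. Transcript levels were higher for 20 of the genes and lower for 17 under the knockout label, and 41 genes did not pass the test. Mrpl52, of the large subunit, had the largest rise, to 1.6 times the control mean. Mrpl18, a large-subunit protein with a bacterial counterpart, had the largest fall, with a control mean 1.43 times that of the libraries labelled knockout. Calls come from limma on log2(TPM + 1) over 11257 genes with a Benjamini-Hochberg adjusted p under 0.05, and fold changes on that log2 scale are libraries labelled knockout minus controls.

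In the limma fit on TPM, the called share was close to that of all genes. Of the 78 genes 47.4% were called, against 50.1% of all genes tested. The share called higher was 25.6%, against 26.7%, and the share called lower was 21.8%, against 23.4%. The median log2 fold change was -0.0025 over the 78 genes and 0.02 over all genes tested. The median absolute log2 fold change was 0.12 over the 78 genes and 0.17 over all genes. Only Mrpl52 and Mrpl18, 2 of the 78, reached an absolute log2 fold change of 0.5, which 1282 of the 11257 genes tested did. The called shares depended on the fit. With limma-voom on recovered reads they were 44.9% of the set and 55.6% of all genes. With no filter on low values they were 37.2% and 27.0%, and with the deposited stabilized log2 values 41.6% and 32.4%. In every other alternative fit the share was lower in the set.

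Of the 37 called genes, 23 had an absolute log2 fold change under 0.25, so most calls rest on small differences. TPM values of the groups did not overlap for 22 genes that were higher and 19 that were lower under the knockout label. Over all genes tested, the groups were apart for 58.5%: 31.3% did not overlap and were higher and 27.2% did not overlap and were lower. The 4 genes whose groups did not overlap without a call were Mrps18a, Mrps25, Mrps14 and Mrpl28. For the 41 genes that were not called, every 95% interval of the log2 fold change lay between -0.32 and 0.29.

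**Figure D1:**
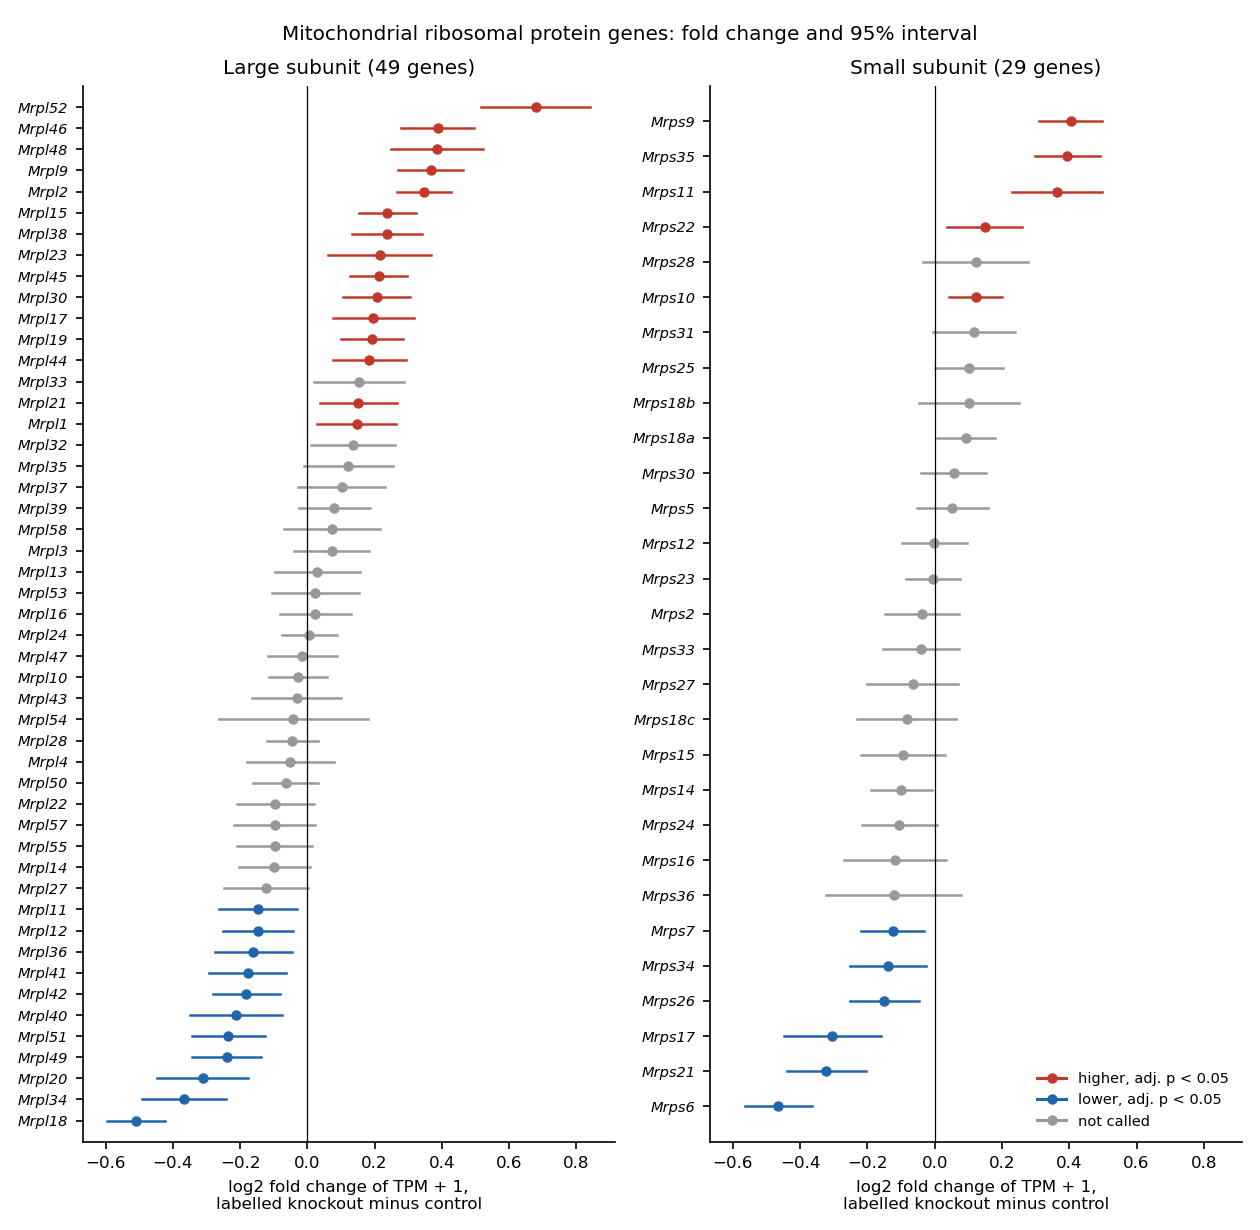
Log2 fold change of TPM + 1 (libraries labelled knockout minus controls, n = 3 each) of the 49 large-subunit and 29 small-subunit genes, with points for estimates, bars for 95% intervals of limma and colours for calls. Estimates run from 0.68 for Mrpl52 to -0.51 for Mrpl18, and most lie close to 0.

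In the large subunit, 15 of 49 genes (30.6%) were higher, 11 (22.4%) were lower and 23 were not called. Over all genes tested, 26.7% were higher and 23.4% lower. The median log2 fold change was 0.02 in the large subunit. Without KO replicate 1, 7 of its genes were lower, beside 2271 of the 11145 genes tested in that fit. Mrpl52, a protein particular to the mitochondrial large subunit, had 102, 97.2 and 98.4 TPM in the libraries labelled knockout, against 69.5, 54.9 and 60.8 TPM in the controls. All 3 libraries labelled knockout lay well above the controls, which were spread more widely. The means were 99.0 ± 2.24 TPM under the knockout label and 61.7 ± 7.33 TPM in the controls (SD, n = 3 each), a log2 fold change of 0.68 with a standard error of 0.07 (limma adjusted p = 4.96e-05). The transcript has 405 bases, the shortest of the 78, and lies in 5 exons on the plus strand of chr14:54426909-54429750 (mm10). None of its exon bases overlapped another coding or long noncoding gene in GENCODE M21.

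Mrpl46 and Mrpl48, also of the large subunit, were higher as well. Mrpl46 had 51.5, 48.3 and 49.8 TPM in the libraries labelled knockout, against 39.9, 35.9 and 37.8 TPM in the controls (log2 fold change 0.39, limma adjusted p = 0.000134). Mrpl48, the large-subunit gene with the lowest mean TPM, had 12.74, 12.79 and 11.96 TPM in the libraries labelled knockout, against 8.62, 9.77 and 9.64 TPM in the controls (log2 fold change 0.38, limma adjusted p = 0.000638). The groups were apart for both genes. Both lie on chromosome 7, whose genes were shifted upward as a whole, and 24.8% of the exon bases of Mrpl48 lie opposite the gene Rab6a, whose reads cannot be told apart there without strand.

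Mrpl9 and Mrpl2 have bacterial counterparts, and in bacteria L2 lies near the peptidyl transferase centre. Mrpl9 had 81.2, 82.7 and 77.1 TPM in the libraries labelled knockout, against 59.7, 62.7 and 63.8 TPM in the controls (log2 fold change 0.37, limma adjusted p = 9.03e-05). Mrpl2 had 102, 102 and 98.6 TPM in the libraries labelled knockout, against 78.6, 80.7 and 78.1 TPM in the controls (log2 fold change 0.35, limma adjusted p = 3.85e-05). For both genes the lowest library labelled knockout exceeded the highest control by more than the range within either group. The other 10 large-subunit genes called higher were Mrpl15, Mrpl38, Mrpl23, Mrpl45, Mrpl30, Mrpl17, Mrpl19, Mrpl44, Mrpl21 and Mrpl1, with log2 fold changes between 0.24 for Mrpl15 and 0.15 for Mrpl1. Mrpl45, which holds the exit of the nascent chain tunnel against the inner membrane, averaged 40.3 ± 0.235 TPM under the knockout label and 34.6 ± 0.737 TPM in the controls (SD, n = 3 each; log2 fold change 0.21).

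Among the falls in the large subunit, Mrpl18 stood lowest. Its bacterial counterpart binds 5S rRNA. Mrpl18 had 113, 116 and 110.0 TPM in the libraries labelled knockout, against 163, 156 and 166 TPM in the controls. The controls exceeded every library labelled knockout by a wide margin. The means were 113 ± 3.18 TPM under the knockout label and 161 ± 4.92 TPM in the controls (SD, n = 3 each), a log2 fold change of -0.51 with a standard error of 0.04 (limma adjusted p = 6.03e-06). The gene has 4 exons on the minus strand of chr17:12911355-12916091 (mm10), and 11.6% of its exon bases lie opposite Tcp1, which encodes a chaperonin subunit.

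Mrpl34 and Mrpl20 also have bacterial counterparts, and in bacteria L20 is needed early in large-subunit assembly. Mrpl34 had 63.8, 66.0 and 59.1 TPM in the libraries labelled knockout, against 82.1, 76.4 and 86.2 TPM in the controls (log2 fold change -0.37, limma adjusted p = 0.000463). Mrpl20 had 45.4, 50.4 and 51.2 TPM in the libraries labelled knockout, against 63.9, 62.9 and 56.5 TPM in the controls (log2 fold change -0.31, limma adjusted p = 0.00208). The groups did not overlap, though the gap for Mrpl20 was narrower than the range within the controls. Mrpl49 and Mrpl51, both particular to mitochondria, had log2 fold changes of -0.24 each, and Mrpl40, Mrpl42, Mrpl41, Mrpl36, Mrpl12 and Mrpl11 made up the rest of the 11.

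**Figure D2:**
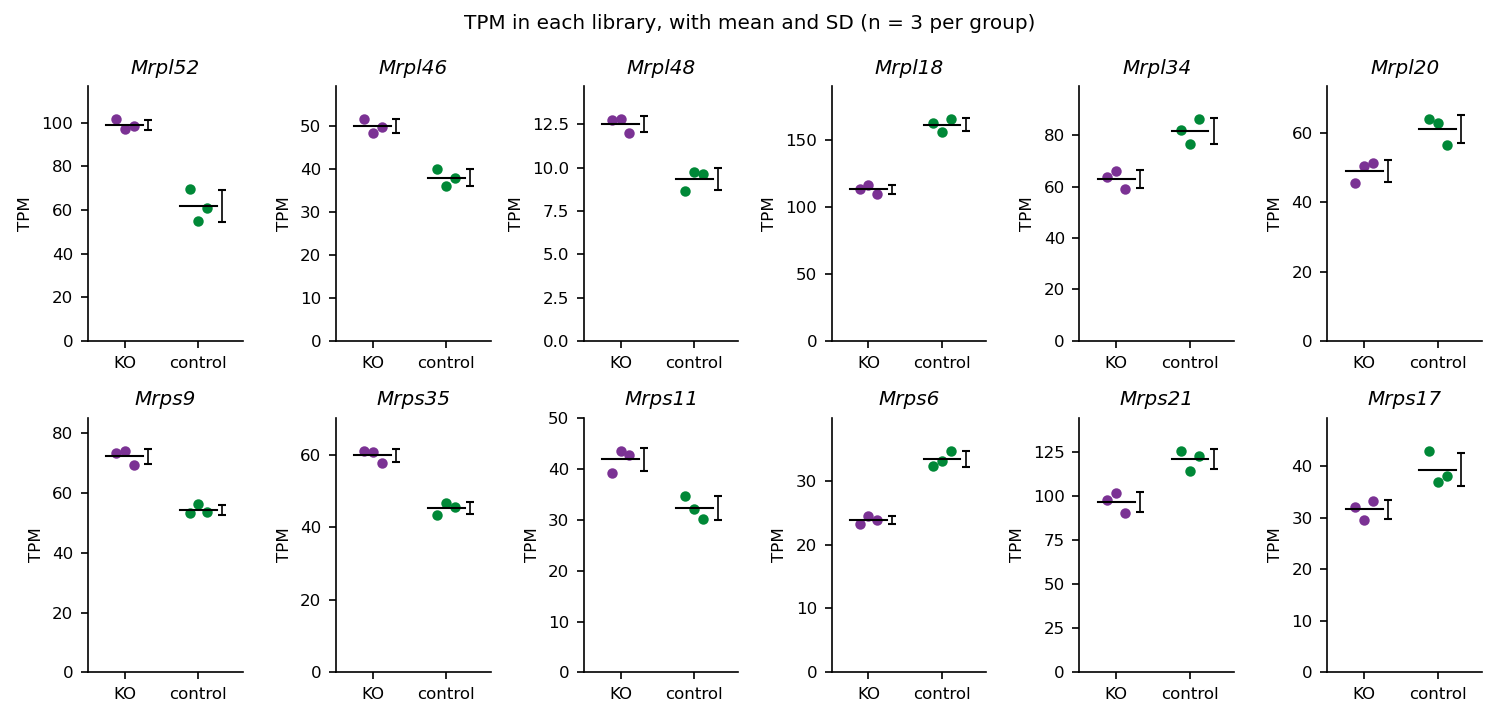
TPM in each library of the 3 highest and 3 lowest fold changes among the called genes of each subunit, with horizontal lines for means and bars for SD (n = 3 per group, purple for libraries labelled knockout, green for controls). The groups are apart in every panel, most widely for Mrpl52 (99.0 against 61.7 TPM on average) and Mrpl18 (113 against 161 TPM).

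In the small subunit, 5 of 29 genes (17.2%) were higher, 6 (20.7%) were lower and 18 were not called. Over all genes tested, 26.7% were higher and 23.4% lower. The median log2 fold change was -0.04 in the small subunit. Without KO replicate 2, 3 of its genes were higher, and without KO replicate 3 or control replicate 3, 3 were lower. Over all genes, 2570 of 11164 were higher without KO replicate 2. Those lower were 2397 of 11153 without KO replicate 3 and 2228 of 11109 without control replicate 3. Mrps9, whose bacterial counterpart reaches the tRNA at the P site, had 73.2, 74.0 and 69.4 TPM in the libraries labelled knockout, against 53.3, 56.2 and 53.4 TPM in the controls (log2 fold change 0.40, limma adjusted p = 4.10e-05). Mrps35, particular to mitochondria, had 61.2, 60.8 and 57.8 TPM in the libraries labelled knockout, against 43.5, 46.8 and 45.8 TPM in the controls (log2 fold change 0.39, limma adjusted p = 5.79e-05). Both genes were higher in 3 of 3 libraries labelled knockout than in any control. Mrps9 has 11 exons on the plus strand of chr1:42851233-42905683, and Mrps35 has 8 exons on the plus strand of chr6:147042770-147070902 (mm10), with no exon overlap found for either.

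Mrps11, a protein of the platform with a bacterial counterpart, had 39.3, 43.6 and 42.8 TPM in the libraries labelled knockout, against 34.8, 32.3 and 30.2 TPM in the controls (log2 fold change 0.36, limma adjusted p = 0.000788). Its groups were apart, and it starts head to head with Mrpl46 on chromosome 7. The other small-subunit genes called higher changed little. Mrps22 had a log2 fold change of 0.15 (limma adjusted p = 0.0308) and Mrps10 one of 0.12 (limma adjusted p = 0.0164).

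Mrps6, with a bacterial counterpart on the platform of the small subunit, had 23.3, 24.5 and 23.8 TPM in the libraries labelled knockout, against 32.2, 33.0 and 34.7 TPM in the controls. Every control lay above every library labelled knockout. The log2 fold change was -0.46 with a standard error of 0.04 (limma adjusted p = 2.68e-05). The gene has 3 exons on the plus strand of chr16:92058336-92112227 (mm10). GENCODE M21 places Gm49711 over 36.1% of its exon bases on the same strand, so reads of the overlapping part cannot be told apart.

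Mrps21 and Mrps17, both with bacterial counterparts, also fell. Mrps21 had 97.7, 101 and 90.1 TPM in the libraries labelled knockout, against 126, 114 and 122 TPM in the controls (log2 fold change -0.32, limma adjusted p = 0.000716). Mrps17 had 32.2, 29.7 and 33.2 TPM in the libraries labelled knockout, against 43.0, 37.0 and 38.1 TPM in the controls (log2 fold change -0.30, limma adjusted p = 0.00319). Neither gene had overlapping groups. The remaining falls were smaller, at log2 fold changes of -0.15 for Mrps26, -0.14 for Mrps34 and -0.12 for Mrps7, and 62.7% of the exon bases of Mrps34 lie opposite Mapk8ip3.

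The genes were also read by the site their products form. The stalk that recruits translation factors is built from the products of Mrpl12, Mrpl10 and Mrpl11. Mrpl12 had 160.0, 155 and 153 TPM in the libraries labelled knockout, against 185, 167 and 168 TPM in the controls, a log2 fold change of -0.15 (limma adjusted p = 0.0239). Mrpl11 had a log2 fold change of -0.15 as well (limma adjusted p = 0.0383), whereas Mrpl10, which anchors Mrpl12, averaged 43.1 ± 0.75 TPM under the knockout label and 43.9 ± 0.970 TPM in the controls (SD, n = 3 each) and was not called.

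At the exit of the nascent chain tunnel, Mrpl23 was called higher (log2 fold change 0.21, limma adjusted p = 0.0258), but it lies on chromosome 7 and was not called in 7 of 14 alternative fits. With the shift of that chromosome removed, described below, Mrpl23 had a log2 fold change of -0.027 (limma adjusted p = 0.773). Mrpl45, placed at the same exit above, was called higher (log2 fold change 0.21, limma adjusted p = 0.00129) and kept its call in all 14 alternative fits. Mrpl24, with a log2 fold change of 0.01, was not called, and 48.5% of its exon bases lie opposite the gene Rrnad1. Mrpl3 (0.07) was not called either, and Mrpl41 was lower (-0.18, limma adjusted p = 0.0165). Mrps12, the counterpart of the bacterial protein at the decoding centre, averaged 43.0 ± 0.966 TPM under the knockout label and 43.1 ± 1.70 TPM in the controls. Mrps15, Mrps16 and Mrps27 were not called, with log2 fold changes of -0.09, -0.12 and -0.07. These differences between genes were not tested against each other.

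Mrps18a, Mrps18b and Mrps18c are 3 paralogs of bacterial S18, of which the product of Mrps18a is built into the large subunit. None was called. Mrps18a had 75.2, 76.0 and 78.4 TPM in the libraries labelled knockout, against 72.1, 69.4 and 73.7 TPM in the controls, apart but with a limma adjusted p of 0.0716. The log2 fold changes were 0.10 for Mrps18b, 59.1% of whose exon bases lie opposite an annotated antisense gene, and -0.08 for Mrps18c. Mrps30, also a large-subunit protein despite its name, averaged 43.6 ± 1.04 TPM under the knockout label and 41.9 ± 1.59 TPM in the controls. Mrps36, now known as a part of the 2-oxoglutarate dehydrogenase complex, averaged 8.62 ± 0.615 TPM under the knockout label and 9.50 ± 1.31 TPM in the controls, and neither was called.

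The 44 genes with bacterial counterparts (numbers up to 36 in the large and 21 in the small subunit) held 12 higher (27.3%) and 10 lower (22.7%). The 34 genes with higher numbers, most of them particular to mitochondria, held 8 higher (23.5%) and 7 lower (20.6%). The shares over all genes tested were 26.7% and 23.4%. The median log2 fold changes were 0.0022 for those with counterparts and -0.0092 for the others. Levels are per deposited transcript length, so the order of genes by TPM depends on that length. For some genes the length differs from the exon bases of the matched GENCODE M21 model. Mrpl48 has 4547 against 1625 bases and Mrpl41 2419 against 776, whereas Mrpl32 has 763 against 3013 and Mrps5 1420 against 4481. The mean TPM over the 6 libraries ranged from 9.06 for Mrps36 to 165 for Mrpl13 and Mrpl12, with a median of 43.1. After these, Mrpl18 was the next most abundant in the large subunit, while Mrps26, Mrps21 and Mrps14 led the small subunit and Mrpl41, Mrpl35, Mrps33 and Mrps27 were among the lowest. Across the 78 genes, Spearman's rho of the log2 fold change was -0.07 with mean TPM and 0.18 with transcript length, against 0.11 with length over all genes tested. Genes are not independent replicates, and all values share the same 6 libraries.

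Summed over genes, the rises and falls nearly balanced. The 49 large-subunit genes summed to 2817, 2857 and 2772 TPM in the libraries labelled knockout, against 2871, 2713 and 2793 TPM in the controls. The 29 small-subunit genes summed to 1492, 1506 and 1469 TPM in the libraries labelled knockout, against 1527, 1468 and 1547 TPM in the controls. Both sums overlapped between groups. The whole set made up 0.775% of listed TPM under the knockout label and 0.778% in the controls.

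The ratio of large-subunit to small-subunit sums was 1.89, 1.90 and 1.89 in the libraries labelled knockout, against 1.88, 1.85 and 1.81 in the controls. The groups were apart by less than the range within the controls. The difference of mean log2 ratios was 0.04, and without control replicate 3 it was 0.02. With medians of log2(TPM + 1) in place of sums, large minus small was -0.049, 0.062 and 0.020 in the libraries labelled knockout, against 0.0022, -0.11 and -0.10 in the controls. On that measure the groups overlapped, and their means differed by 0.080. For the sums, moving Mrps18a and Mrps30 to the large subunit and leaving out Mrps36 gave a difference of 0.05. With medians under that assignment, large minus small was -0.047, -0.043 and -0.065 in the libraries labelled knockout. In the controls it was -0.048, -0.095 and -0.080, so these groups overlapped as well.

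**Figure D3:**
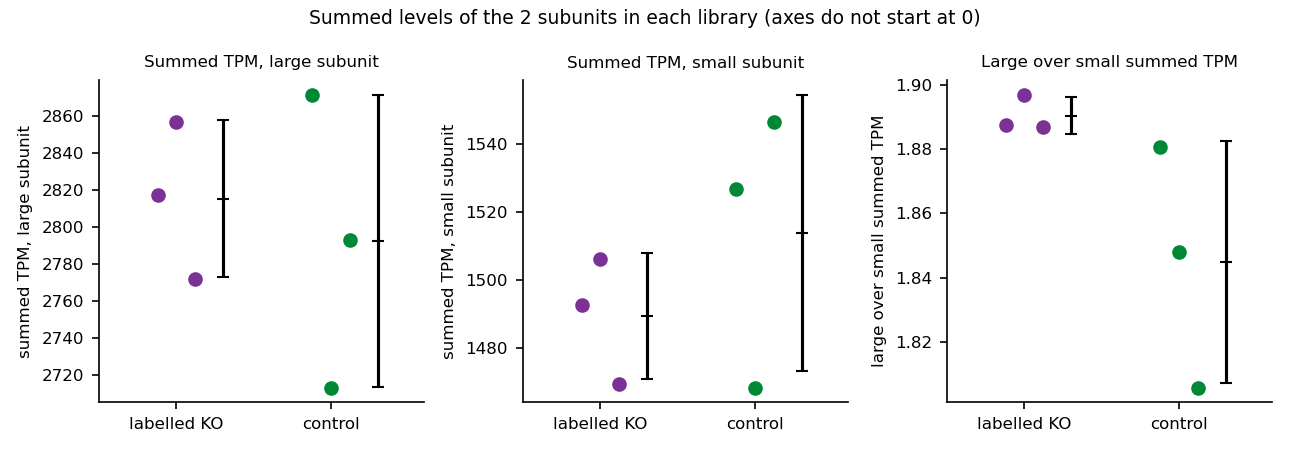
Summed TPM of the large-subunit genes (left), of the small-subunit genes (middle) and their ratio (right) in each library, labelled knockout left of control, with means and SD (n = 3 per group); the axes do not start at 0. The sums overlap between groups, and the ratio lies at 1.89 to 1.90 under the knockout label and at 1.81 to 1.88 in the controls.

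The set held 6 genes on chromosome 7, namely Mrpl17, Mrpl23, Mrpl46, Mrpl48, Mrps11 and Mrps12. Of these, 5 were higher and 0 were lower under the knockout label. Of the 878 tested genes of that chromosome, 59.2% were higher and 8.31% lower, while on the other chromosomes 23.9% were higher and 24.7% lower. The median log2 fold change was 0.29 over the 6 genes and 0.24 over all tested genes of chromosome 7.

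With the chromosome-wide shift of 0.24 subtracted, an alternative chosen after seeing the data, Mrpl46 had a log2 fold change of 0.15 (limma adjusted p = 0.0312) and stayed called. Mrpl48 (0.14, limma adjusted p = 0.0831) and Mrps11 (0.12, limma adjusted p = 0.123) did not. Mrpl17 and Mrpl23 came to -0.046 and -0.027, and Mrps12, not called before, became called lower at -0.24 (limma adjusted p = 0.00135). Outside chromosome 7, 15 of 72 genes (20.8%) were higher and 17 (23.6%) were lower, against 23.9% and 24.7% of all tested genes there.

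**Figure D4:**
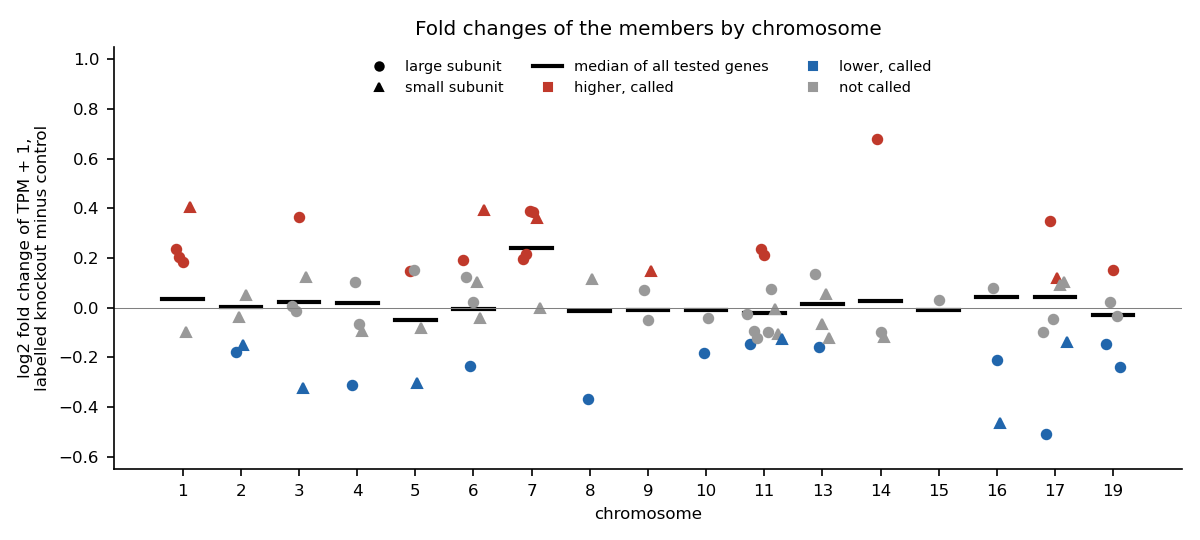
Log2 fold change of each gene by chromosome, with circles for the large and triangles for the small subunit, colours for calls and black bars for the median of all tested genes on the chromosome. On chromosome 7 the bar lies at 0.24 and the 6 genes at a median of 0.29, while the bars of the other chromosomes lie near 0.

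Many of these genes start head to head with another coding gene, within 1000 bases upstream or with an overlap of up to 500 bases. This held for 27 of the 78 (34.6%), against 16.1% of 10466 tested coding genes in GENCODE M21. In 25 pairs both genes were tested. Both were called in 6 pairs, in the same direction each time. Only the mitochondrial ribosomal protein gene was called in 6 pairs, only its partner in 4, and neither in 9. Across the 25 pairs, Spearman's rho of the log2 fold changes was 0.60 and Pearson's r 0.55, as a description, since paired genes share libraries, chromosomes and, in some pairs, reads. Neither these values nor the shared directions were computed over all tested genes that start head to head.

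The pairs called higher were Mrpl2 with Klc4, Mrpl44 with Wdfy1 and Mrpl46 with Mrps11, and those called lower were Mrpl18 with Tcp1, Mrpl51 with Ncapd2 and Mrps7 with Gga3. Some exon bases lie opposite the partner for Mrps11 (16.4%), Mrpl18 (11.6%), Mrpl44 (8.85%) and Mrps7 (6.47%), where reads cannot be told apart. No exon overlap was found for Mrpl2 and Mrpl51. With the chromosome 7 shift removed, Mrps11 was not called (limma adjusted p = 0.123). Tcp1 averaged 321 ± 4.83 TPM under the knockout label and 365 ± 13.3 TPM in the controls (SD, n = 3 each), a log2 fold change of -0.19, against -0.51 for Mrpl18. Ncapd2, a condensin subunit, averaged 46.8 ± 1.55 TPM under the knockout label and 56.9 ± 1.88 TPM in the controls, a log2 fold change of -0.28 beside -0.24 for Mrpl51. Other partners were called beside a neighbour that was not. Mtbp, next to Mrpl13, had a log2 fold change of 0.63, while Mrpl13 averaged 167 ± 11.2 TPM under the knockout label and 163 ± 8.92 TPM in the controls and was not called. Of the exon bases of Mrpl13, 27.0% lie opposite Mtbp, and reads cannot be told apart there without strand.

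**Figure D5:**
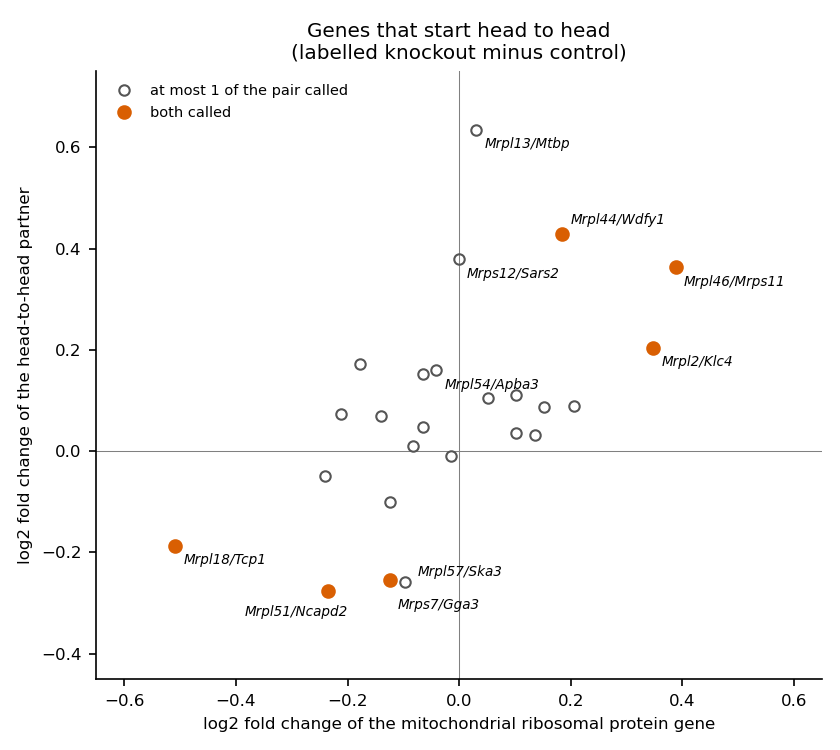
Log2 fold change of each mitochondrial ribosomal protein gene (horizontal) and of the gene that starts head to head with it (vertical), labelled knockout minus control, for 25 pairs, with filled points where both were called. The 6 filled points lie in the upper right or lower left, and Mtbp and Sars2 are high (0.63 and 0.38) beside genes near 0.

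Sequence upstream of the starts was read for 69 of the 78 genes from RefSeq promoters (GRCm38.p6), over 250 bases before the start and on both strands. The words searched were the NRF1 consensus, CCGGAAG for ETS factors such as GABP, AAGATGGC for YY1, CACGTG for the E-box, TTACGTAA or TTATGTAA for the D-box bound by E4BP4, and TGATGNAA for an ATF4 and C/EBP composite site. NRF1, GABP and YY1 are known regulators of nuclear genes for mitochondria. The promoters below belong to called genes away from chromosome 7, with no head-to-head neighbour, and each holds at least 1 word, in capitals. They are chr14:54426659-54426908 for Mrpl52 and chr11:97315466-97315715 for Mrpl45, both higher, and chr8:71464676-71464925 for Mrpl34 and chr4:155802628-155802877 for Mrpl20, both lower, all on the plus strand and 5′ to 3′.
Mrpl52: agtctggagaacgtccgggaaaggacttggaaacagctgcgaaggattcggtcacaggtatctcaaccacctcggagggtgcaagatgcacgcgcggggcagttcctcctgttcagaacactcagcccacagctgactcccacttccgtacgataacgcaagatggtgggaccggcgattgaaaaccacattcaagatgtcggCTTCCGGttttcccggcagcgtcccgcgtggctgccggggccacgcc
Mrpl45: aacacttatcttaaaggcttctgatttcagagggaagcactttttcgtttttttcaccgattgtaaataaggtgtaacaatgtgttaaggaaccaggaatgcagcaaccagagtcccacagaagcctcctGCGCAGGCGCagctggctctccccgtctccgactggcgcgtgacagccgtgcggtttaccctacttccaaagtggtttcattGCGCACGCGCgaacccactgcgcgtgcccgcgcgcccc
Mrpl34: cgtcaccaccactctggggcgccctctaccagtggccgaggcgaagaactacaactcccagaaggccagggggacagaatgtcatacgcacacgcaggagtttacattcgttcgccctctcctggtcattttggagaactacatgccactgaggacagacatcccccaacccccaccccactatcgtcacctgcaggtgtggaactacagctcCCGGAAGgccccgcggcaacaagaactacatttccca
Mrpl20: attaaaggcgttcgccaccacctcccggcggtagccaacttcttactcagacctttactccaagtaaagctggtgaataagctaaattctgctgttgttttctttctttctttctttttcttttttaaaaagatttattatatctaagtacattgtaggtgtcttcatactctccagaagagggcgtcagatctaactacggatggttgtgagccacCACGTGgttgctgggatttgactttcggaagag
Capitals mark an ETS word at -47 to -41 from the start of Mrpl52 and one at -37 to -31 from that of Mrpl34, NRF1 words at -120 to -111 and -38 to -29 from the start of Mrpl45, and an E-box at -33 to -28 from that of Mrpl20, counting the base before the start as -1. The windows of Mrps9 and Mrps6, also called, away from chromosome 7 and with no head-to-head neighbour, held none of the words.

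Across the 69 promoters, the NRF1 word was found in 10 (14.5%), against 9.64% of 8597 tested genes. The ETS word was found in 16 (23.2%), against 16.0%, and the YY1 word in 4 (5.80%), against 2.22%. The E-box was found in 5 (7.25%), against 8.83%. The D-box words were found in 0 of the 69, against 0.512% of tested genes, and the composite word in 0, against 1.85%. The NRF1 word was present in 5 of 16 promoters of genes called higher (Mrpl9, Mrpl17, Mrpl30, Mrpl44 and Mrpl45), in 2 of 16 called lower (Mrpl12 and Mrps21) and in 3 of 37 not called. The ETS word was present in 3, 4 and 9 of the same promoters. These splits by call have no share over all tested genes beside them. Mrpl17 lies on chromosome 7 and was not called with the shift of that chromosome removed. A word is a description of the sequence and not a site of binding, and its absence from these windows says nothing of the factor.

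Genes that act with the mitochondrial ribosome were counted from lists written for this comparison. Of 5 subunits with other names, Gadd45gip1 was lower (38.7 ± 1.33 TPM under the knockout label, 44.6 ± 2.21 TPM in the controls; SD, n = 3 each), and Dap3, Aurkaip1, Ptcd3 and Chchd1 were not called. Of 27 genes for ribosome assembly and rRNA modification, 11 (40.7%) were higher and 5 (18.5%) were lower, with a median log2 fold change of 0.09. Over all genes tested these values were 26.7%, 23.4% and 0.02. The rises were led by Ngrn (0.60, on chromosome 7), Fastkd2 (0.45) and Mterf3 (0.42). Fastkd2, a protein of mitochondrial RNA granules, had 31.8, 33.3 and 31.6 TPM in the libraries labelled knockout, against 23.3, 24.6 and 22.3 TPM in the controls.

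Of 18 tested translation factors and partners, 4 (22.2%) were higher and 3 (16.7%) were lower. Tufm, the mitochondrial elongation factor Tu, had a log2 fold change of 0.35 on chromosome 7, Lrpprc, which stabilizes mitochondrial mRNAs, one of 0.35, and Mtrf1l, a release factor, one of -0.31. Of 15 tested genes for transcription and maintenance of mitochondrial DNA, 7 (46.7%) were higher, among them Polg (0.26, on chromosome 7), and 2 (13.3%) were lower, Mgme1 (-0.34) and Polg2 (-0.48). Of 13 tested regulators, 4 (30.8%) were higher and 3 (23.1%) were lower. Among them, Nrf1 was lower (log2 fold change -0.17), and the GABP genes Gabpa (0.15) and Gabpb2 (0.26) were higher. Gabpb1 and Yy1 were not called. The same 26.7% and 23.4% of all genes tested stand beside these shares, and no list was tested as a whole. Atf5, a factor of the mitochondrial stress response on chromosome 7, averaged 65.6 ± 0.662 TPM under the knockout label and 38.5 ± 0.249 TPM in the controls, a log2 fold change of 0.75. Tfeb and Tfe3, which drive lysosomal genes, had log2 fold changes of -0.35 and -0.40. The limma adjusted p of each gene named as called was below 0.05 over all genes tested.

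The authors' deposited table of their own comparison held all 78 genes, Mrpl58 under its older symbol. At an adjusted p under 0.05 the authors' deposited table had 14 of the 78 genes higher and 14 lower. Over all 18983 genes tested there, 2701 (14.2%) were higher and 2697 (14.2%) were lower. That base is wider than the 11257 genes tested with limma here. The 28 were all among the 37 called here and had the same direction. The 9 called here alone were Mrpl1, Mrpl21, Mrpl23, Mrpl36, Mrpl44, Mrps7, Mrps10, Mrps22 and Mrps34. In the authors' deposited table the log2 fold change was 0.66 for Mrpl52, 0.40 for Mrps9 and -0.53 for Mrpl18. The 2 analyses use the same libraries and are not independent.

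A core of 21 genes was called in the same direction in limma on TPM and in all 14 alternative fits. These were 26.9% of the 78, against 29.8% of the 11257 genes tested, with 15.4% higher against 15.2% and 11.5% lower against 14.6%. The fit at a TPM of at least 5 tested only 9075 genes, with all 78 among them. The share over those 9075 genes was not computed, so these shares do not rest on like sets of genes. The 12 higher were Mrpl52, Mrpl46, Mrpl9, Mrpl2, Mrpl15, Mrpl38, Mrpl45, Mrpl30, Mrpl19 and Mrpl44 in the large subunit and Mrps9 and Mrps35 in the small subunit. The 9 lower were Mrpl18, Mrpl34, Mrpl20, Mrpl49, Mrpl51 and Mrpl42 in the large subunit and Mrps6, Mrps21 and Mrps17 in the small subunit. Over these fits the log2 fold change of Mrpl52 lay between 0.48 and 0.77, that of Mrpl18 between -0.53 and -0.46, and that of Mrps6 between -0.50 and -0.32. Exons of 12 of the 78 genes overlapped another annotated gene over at least 20% of their bases, and of the core these were Mrpl19 (39.2%, opposite Gcfc2) and Mrps6. GENCODE M21 names pseudogenes of Mrpl23, Mrpl48 and Mrps36, so reads of these 3 genes may have been split or shared. Only pseudogenes named after a member were searched, so those under other names were not counted and may affect other genes.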

How the data were processed

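RNA-seq of 3 libraries labelled knockout and 3 control libraries was used, grouped by the submitters' labels. Per the submitters' processing notes, the tools were bcl2fastq, STAR 2.7.5a, HOMER 4.11.1 and DESeq2 with the mm10 build, and their roles are not given there. The authors deposited TPM values with 1 transcript per symbol, and a second table with stabilized log2 values, log2 fold changes, p-values and adjusted p-values of their own comparison, per the file headers. No source used here states how those deposited log2 values were transformed, and their header names the compared group TG, read here as the group labelled knockout.

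The tables held no counts, so in place of a count model TPM values were compared with limma 3.58.1 in R 4.3.3 (mean-variance trend, log2(TPM + 1), TPM of at least 1 in at least 3 of 6 libraries, two-sided, Benjamini-Hochberg over 11257 genes). This scale understates the change of low genes. TPM multiplied by transcript length gave whole multiples of 1 read for 100% of values within a tolerance of 0.1, against 20% by chance, and 15615639 to 19867732 reads per library were so recovered. They were used for depth and for limma-voom only. The fit was tested on simulated data.

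The members, lists and tests were chosen with earlier results of these data known. Named were Nfil3, the 5 highest and 5 lowest called genes per subunit, the 3 most and 3 least abundant, a set of genes with known roles and up to 3 genes per list. Other names were chosen after their values were seen. Exons, neighbours and overlaps were read from GENCODE M21, built on GRCm38 like mm10, and promoters from RefSeq. Alternatives covered the pseudocount, filters, upper-quartile scaling, limma-voom, the deposited log2 values, a replicate block, leaving out each library, the subunit assignment and, added after seeing the data, removal of the chromosome 7 shift. A marker list is not reported here.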

Additional observations from a re-analysis of the deposited data

How the results depend on the processing

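The 20 higher and 17 lower genes split into 15 and 11 in the large subunit and 5 and 6 in the small subunit. Leaving out 1 library at a time gave 11 to 17 higher and 7 to 11 lower in the large subunit, with 7 without KO replicate 1. It gave 3 to 5 higher and 3 to 9 lower in the small subunit, with 3 higher without KO replicate 2, 3 lower without KO replicate 3 and without control replicate 3, and 9 lower without control replicate 2. Over all genes the same fits gave 2429 to 2902 higher and 2228 to 2585 lower, against 3002 and 2637 with every library kept. The deposited stabilized log2 values gave 3 small-subunit genes higher, and 3061 of 18983 higher over all genes. The log2 difference of the subunit ratio was 0.02 to 0.05 with 1 library left out and 0.080 with median log2(TPM + 1) in place of the sums. With the chromosome 7 shift removed, chosen after seeing the data, Mrpl17 and Mrpl23 turned to -0.046 and -0.027. The cause of these changes was not tested, other than that fewer libraries enter the fits that leave one out. The deviations of same-numbered libraries correlated at -0.01, -0.06 and 0.00, so no shared deviation by number was seen. This cannot tell if same-numbered libraries were prepared together, which the labels do not say. With a replicate block, 13 large-subunit genes were higher and 10 lower, 5 small-subunit genes were higher and 4 lower, and over all genes 2794 were higher and 2503 lower, against 3002 and 2637 without it. Of the 37 called genes, 27 to 37 kept their call under each of the 14 alternative fits, and no call made in both fits changed direction. With 3 libraries a group, the smallest absolute log2 fold change called among the 78 genes was 0.12.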
